A study of Mus musculus with 14 samples.

Results

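Cellular senescence markers were followed in RNA-seq values of mouse ovary and uterus. They are 8 genes chosen by name, Cdkn1a, Cdkn2a, Cdkn2b, Trp53, Lmnb1, Glb1, Il6 and Gdf15, out of 21853 protein-coding genes quantified, and all 8 were found through their Ensembl identifiers in GENCODE M21. The libraries came from female C57BL/6J mice aged 28 weeks. The OC ("old control") group held 3 mice injected with saline, and the OT ("old treatment") group held 4 mice injected with AMSC-CM, medium conditioned by mesenchymal stem cells of human amniotic membrane from 3 pooled donors. Both groups received 6 injections into the tail vein at 4-day intervals, 1 µL per g each, and both had first been given pregnant mare serum gonadotropin and human chorionic gonadotropin (10 IU each, 48 h apart) to align their cycles. Ovary and uterus were taken from each of the 7 mice, which gave 14 libraries from whole tissue. Young mice were not analysed here, so no level below says how a marker changes with age.

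Cellular senescence is a lasting exit from the cell cycle that follows DNA damage, telomere loss or oncogene activity. It is held by a pair of brakes. In the first, the transcription factor p53 (Trp53) turns on Cdkn1a, which encodes the cyclin-dependent kinase inhibitor p21. In the second, p16Ink4a (Cdkn2a) and p15Ink4b (Cdkn2b) block CDK4 and CDK6 and keep the RB protein active. Senescent cells also lose lamin B1 (Lmnb1) from the nuclear envelope, accumulate lysosomal beta-galactosidase (Glb1, the enzyme behind the SA-beta-gal stain) and secrete cytokines such as interleukin-6 (Il6) and the stress-induced factor GDF15 (Gdf15). None of these genes is specific to senescent cells. In the ovary and uterus several of them also serve the cell cycle exit of granulosa, luteal and endometrial cells.

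The deposited values were FPKM, in which fragments are divided by transcript length and by library size, so levels can be compared between genes. The total FPKM per library was between 374816 and 397644 in the ovaries and between 425875 and 577494 in the uteruses, where OT1 was highest, and the number of reads behind a value is unknown. The tissue labels were checked with markers. The summed level of 14 ovary markers was between 5587 and 7054 FPKM in the ovaries and between 9.63 and 26.5 FPKM in the uteruses, where Fshr, Zp3 and Figla were listed at 0 in every library. The ovary libraries also held 485 to 1006 FPKM of 8 oviduct and ciliated cell markers, against 9.78 to 189 FPKM in the uteruses. In the uterus, markers of other tissues moved with the treatment. The 12 adipocyte markers summed to 112 to 314 FPKM in OC and 1361 to 12476.6 FPKM in OT uteruses, none was listed at 0 in either group, and 12 of 12 passed the test described next. The 12 markers of stratified epithelium summed to 3.09 to 14.3 FPKM in OC, where Krtdap and Lypd3 were listed at 0 throughout, and to 231, 47.0, 826 and 401 FPKM in the uteruses of OT1, OT2, OT3 and OT4. Of their 11 tested genes 9 passed. In the OC uteruses 8 of the 12 stayed under 1 FPKM in every library. Genes this low in OC may have been tested only through their OT values, so this count is a description. In the ovary, the adipocyte markers summed to 250 to 369 FPKM in OC and to 1973, 1453, 297 and 497 FPKM in OT1 to OT4. All 12 had a higher fitted level in OT ovaries, and 5 of 12 passed. In bulk tissue, fewer cells of a type and less RNA per cell cannot be told apart.

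OT and OC were compared with limma on log2(FPKM + 0.1) in each tissue, for genes that averaged 0.5 FPKM or more. Fold changes are on that scale, which understates the change of low genes. A gene was called when it differed by 2-fold or more with an unadjusted p of 0.05 or less. By this rule 0.451% of 14415 ovary genes (0.368% higher in OT) and 2.9% of 14151 uterus genes (2.23% higher in OT) were called. No gene reached a Benjamini-Hochberg adjusted p under 0.05 by limma in either tissue, while 650 ovary genes (4.51%) and 1160 uterus genes (8.2%) had an unadjusted p under 0.05. Among the markers, 7 of 8 passed the filter in ovaries and 6 of 8 in uteruses. None of them was called in either tissue. In the ovary the groups overlapped for all 8 markers, where 5.91% of tested genes had groups that did not overlap. Il6 lay below the filter in both tissues and Cdkn2a just below it in the uterus.

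**Figure D1:**
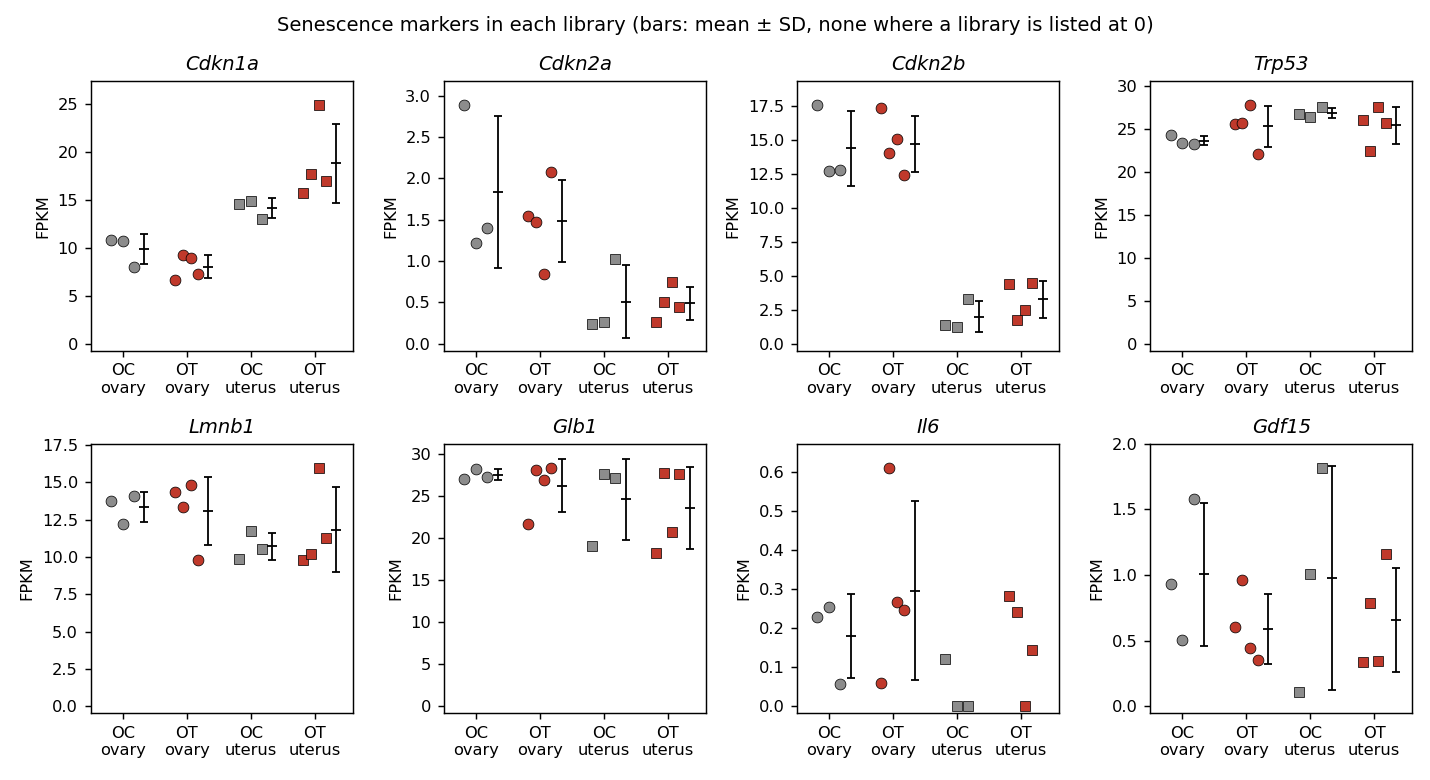
FPKM (y axis, linear) of each of the 8 markers in each library, with 3 OC and 4 OT mice per tissue (circles, ovary. Squares, uterus. Grey, OC. Red, OT). The bar beside each group is the mean ± SD. The Cdkn1a panel shows the 4 OT uteruses, at 15.8 to 24.9 FPKM, above the 3 OC uteruses, at 13.0 to 14.9 FPKM, and the Cdkn2b panel shows the uteruses far below the ovaries.

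Sequences are shown for the genes in which the tissues or groups stood apart, Cdkn1a and the Cdkn2a-Cdkn2b locus. The first pair are the stretches just upstream of the annotated genes, from the RefSeq promoter windows of GRCm38.p6, which run from 250 bases before to 50 bases after a start site. Of the 8 markers, 7 had such a window, 10 windows in all. The Cdkn1a stretch lies on the forward strand of chr17:29090729-29090975. Its capitals mark a match to CATGNNNNNNCATG, a pair of cores of the p53 consensus at the spacing they have when abutted, which begins 48 bases before the RefSeq start of that window. Cdkn1a has another RefSeq window, at chr17:29093519-29093818, which held no match. The Cdkn2b stretch is read on the reverse strand of chr4:89311040-89311282, and its capitals mark the cyclic AMP response element TGACGTCA, which begins 46 bases before the start.
Cdkn1a upstream: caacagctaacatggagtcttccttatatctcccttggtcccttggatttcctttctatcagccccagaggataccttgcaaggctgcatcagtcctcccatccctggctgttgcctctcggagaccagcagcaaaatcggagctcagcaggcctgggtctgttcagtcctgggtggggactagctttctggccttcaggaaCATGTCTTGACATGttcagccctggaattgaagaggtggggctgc
Cdkn2b upstream: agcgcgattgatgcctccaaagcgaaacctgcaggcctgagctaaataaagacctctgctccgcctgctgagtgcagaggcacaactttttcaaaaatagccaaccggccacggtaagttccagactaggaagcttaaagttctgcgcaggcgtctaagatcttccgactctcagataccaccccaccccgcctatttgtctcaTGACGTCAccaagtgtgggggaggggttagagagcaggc
On either strand, CATGNNNNNNCATG was found in 0.712% of 32851 promoter windows of the annotation and TGACGTCA in 1.79%, both palindromes that read the same from either side. The GC box GGGCGG was found in 35.7%. Among the windows of the markers, CATGNNNNNNCATG was found in 1 window of Cdkn1a alone and TGACGTCA in that of Cdkn2b alone. GGGCGG was found in windows of Cdkn1a, Cdkn2a, Cdkn2b and Glb1. A match is a description of letters and was not tied to binding here.

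The second set shows why Cdkn2a has a single value for 2 proteins. Cdkn2a (chr4:89274471-89294653, reverse strand, GRCm38) has alternative first exons that join the same exon 2 in different reading frames. Cdkn2a-201 encodes p16Ink4a from exon 1 at chr4:89281986-89282192, and Cdkn2a-202 encodes p19Arf, an activator of p53, from exon 1 at chr4:89294334-89294653. Both join exon 2 at chr4:89276645-89276985. The lines below give the last 30 bases of exon 1 in lower case and the first 30 bases of exon 2 in capitals, with the same junction of the neighbouring Cdkn2b.
Cdkn2a-201: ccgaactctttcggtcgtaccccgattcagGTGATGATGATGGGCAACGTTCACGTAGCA
Cdkn2a-202: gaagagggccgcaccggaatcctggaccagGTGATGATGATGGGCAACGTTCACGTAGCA
Cdkn2b-201: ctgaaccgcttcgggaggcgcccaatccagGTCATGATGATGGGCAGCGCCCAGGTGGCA
The capitals of both Cdkn2a transcripts are identical, and 575 exon bases are shared by both transcripts. The deposited gene-level FPKM does not separate p16Ink4a from p19Arf. Cdkn2b (chr4:89306299-89311039) lies 11645 bases from Cdkn2a, and its exon 2 coding sequence matched that of Cdkn2a-201 at 196 of 255 aligned bases (76.9%). The longest identical run was 23 bases.

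Trp53 (chr11:69580359-69591873), the gene of p53, was close to the same level everywhere. In the ovary it was at 24.2, 23.3 and 23.3 FPKM in OC1, OC2 and OC3, and at 25.6, 25.7, 27.8 and 22.1 FPKM in OT1 to OT4. Uterus values were 26.7, 26.4 and 27.5 FPKM in OC and 26.0, 22.4, 27.6 and 25.7 FPKM in OT. The groups overlapped in both tissues. For OT less OC, the log2 difference was 0.09 (95% CI -0.10 to 0.29) in ovaries and -0.08 (95% CI -0.36 to 0.19) in uteruses, and both intervals lie within a 2-fold difference. Uterus and ovary differed by a log2 value of 0.10 (standard error 0.07, limma adjusted p = 0.246).

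Cdkn1a (chr17:29090976-29100727, forward strand), whose product p21 inhibits CDK2 and stops cells before S phase, had differences of opposite sign in the 2 tissues. In the ovary it was at 10.8, 10.7 and 8.02 FPKM in OC1 to OC3, and at 6.68, 9.28, 8.89 and 7.31 FPKM in OT1 to OT4. The ovary groups overlapped, with the OC3 ovary inside the OT range and OT1 and OT4 below all OC ovaries. In the uterus it was at 14.6, 14.9 and 13.0 FPKM in OC and at 15.8, 17.7, 24.9 and 16.9 FPKM in OT. All 4 OT uteruses lay above all 3 OC uteruses, and OT3 stood highest. The OT uterus mean was 18.8 ± 4.14 FPKM (SD, n = 4) and the OC mean 14.1 ± 1.03 FPKM (SD, n = 3).

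The size of these differences was small beside the 2-fold threshold. In the uterus Cdkn1a was 1.31-fold higher in OT (log2 difference 0.39, standard error 0.18, 95% CI -0.02 to 0.80, limma unadjusted p = 0.0600, adjusted p = 0.600). The exact two-sided permutation p was 0.0571, the smallest that 35 splits of 3 against 4 mice allow. Over all tested genes in the uterus, 11.9% had groups that did not overlap and 6.46% had every OT library higher. In the ovary the log2 difference was -0.29 (standard error 0.16, 95% CI -0.64 to 0.07, limma adjusted p = 0.997). The uterus difference depended on single mice and on scaling: it was 0.25 (limma unadjusted p = 0.113) without OT3, 0.47 (0.0252) without OT1 and 0.25 (0.291) when every library was scaled to the same total. The ovary difference was -0.43 (0.0277) without OC3.

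The question of whether the tissues responded differently was tested with the interaction term, the OT minus OC difference in the uterus less that in the ovary, in a fit of all 14 libraries. For Cdkn1a it was 0.68 on the log2 scale (standard error 0.24, 95% CI 0.15 to 1.20, limma unadjusted p = 0.0156, adjusted p = 0.844). The term passed in 5.12% of 14557 genes by unadjusted p alone, and 1.83% of the genes were called with a 2-fold difference as well, Cdkn1a not among them. Within a mouse, the uterus exceeded the ovary by 0.43, 0.48 and 0.69 on the log2 scale in OC1 to OC3, and by 1.23, 0.92, 1.48 and 1.20 in OT1 to OT4. All 4 OT mice lay above all 3 OC mice, which was so in either direction for 7.6% of genes, and the exact two-sided permutation p was 0.0571, the smallest possible. With the mouse as a block the limma unadjusted p was 0.00496. Without OC1 the value was 0.62 (limma unadjusted p = 0.0565) and under scaling to the same total 0.53 (limma unadjusted p = 0.0808). Levels of stratified epithelium markers (2.38 to 2.66 FPKM in OC and 1.52 to 2.85 FPKM in OT ovaries) differed between OC and OT in the uterus as given above. Those of adipocytes were higher in OT in the uterus and, with overlap, in the ovary. Other sets also stood apart between the uterus groups. The 8 smooth muscle markers summed to 7947 to 9345 FPKM in OC and 9792 to 14812 FPKM in OT, with none called. The 9 macrophage markers summed to 374 to 433 FPKM in OC and 435 to 1399 FPKM in OT, with 1 called. The 9 uterus markers summed to 658 to 756 FPKM in OC and 387 to 589 FPKM in OT, with none called. The part of any of these sets in the Cdkn1a result was not tested. In the uteruses of OT1 to OT4, Cdkn1a was at 15.8, 17.7, 24.9 and 16.9 FPKM. In the same order, stratified epithelium markers summed to 231, 47.0, 826 and 401 FPKM, and adipocyte markers to 12476.6, 1365, 2496 and 1361 FPKM.

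Between tissues, Cdkn1a was higher in the uterus in 7 of 7 mice. The fitted difference was 1.83-fold (log2 difference 0.87, standard error 0.12, limma adjusted p = 5.17e-05), below the 2-fold limit of a call. By adjusted p alone 52.9% of genes differed between the tissues. Upward or downward, 40.7% of genes had the same direction in all 7 mice. The exact sign-flip permutation p was 0.0156, the smallest that 7 mice allow.

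**Figure D2:**
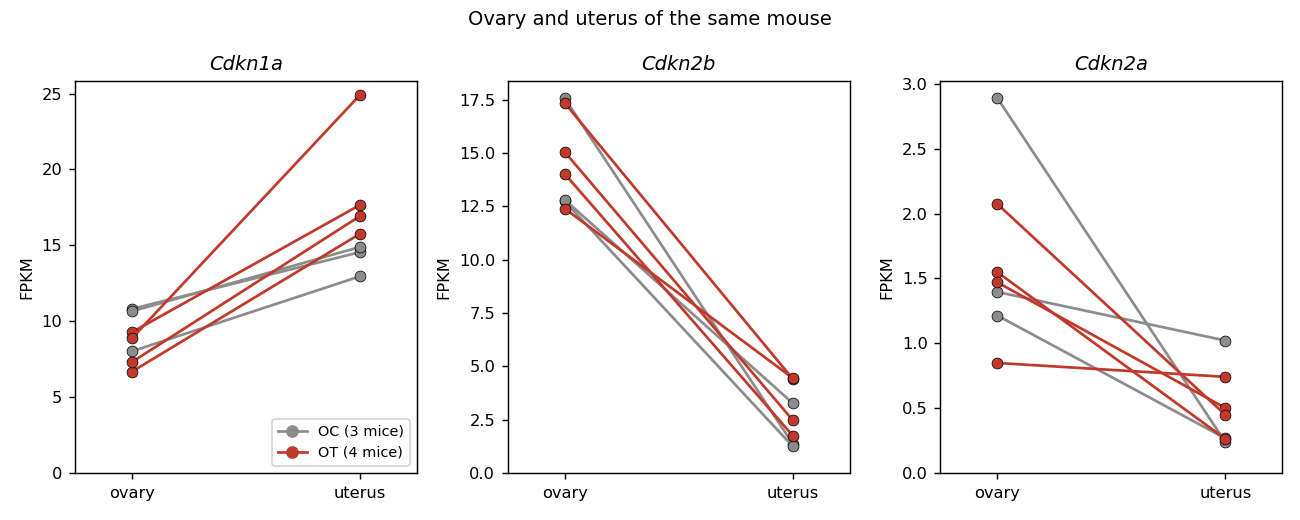
FPKM (y axis, linear) of Cdkn1a, Cdkn2b and Cdkn2a in the ovary and the uterus of the same mouse, joined by a line (grey, 3 OC mice. Red, 4 OT mice). Cdkn1a went up from ovary to uterus in 7 of 7 mice, more steeply in OT, and Cdkn2b and Cdkn2a went down in 7 of 7 mice.

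The 22 p53 target genes listed beside these markers were all tested in each tissue, and 1 of them was called. In the ovary none was called, and Gadd45a, a DNA damage response gene, was lower in OT at an unadjusted p of 0.0357 by limma (63.2 ± 3.61 FPKM in 3 OC and 54.7 ± 5.14 FPKM in 4 OT ovaries). In the uterus 1 was called, Perp, which encodes a desmosome protein of stratified epithelia that p53 and p63 induce. Perp was at 22.5 ± 5.18 FPKM in OC and 58.5 ± 35.5 FPKM in OT (log2 difference 1.20, standard error 0.43, limma adjusted p = 0.550). Its call was lost without OC1 (1.06), OC3 (1.17), OT3 (0.85) or OT4 (1.11), and under scaling to the same total (1.06). The part of the stratified epithelium markers in this difference was not tested. The median log2 difference of the list was 0.01 for ovaries, against -0.01 over all tested genes, and 0.003 for uteruses, against 0.01.

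Cdkn2b and Cdkn2a were the markers called between tissues, while Cdkn1a, as given above, differed by less than 2-fold. Cdkn2b, the p15Ink4b gene that TGF-beta induces in many cells, was at 17.6, 12.7 and 12.8 FPKM in OC ovaries and at 17.3, 14.01, 15.0 and 12.4 FPKM in OT ovaries. Its uterus values were 1.36, 1.24 and 3.27 FPKM in OC and 4.40, 1.75, 2.47 and 4.44 FPKM in OT. Every ovary lay above every uterus. The uterus was 5.97-fold lower (log2 difference -2.58, standard error 0.25, limma adjusted p = 1.61e-06), with the same direction in 7 of 7 mice.

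Cdkn2a (1.83 ± 0.920 FPKM in OC and 1.48 ± 0.502 FPKM in OT ovaries) was also higher in the ovary. It was at 2.89, 1.21 and 1.40 FPKM in OC ovaries and at 1.55, 1.47, 0.848 and 2.07 FPKM in OT ovaries. In the uterus it was at 0.236, 0.266 and 1.02 FPKM in OC and at 0.262, 0.501, 0.741 and 0.447 FPKM in OT. The ranges of the tissues met, since the OC3 uterus lay above the OT3 ovary, but within each mouse the ovary was higher in 7 of 7. The uterus was 3.07-fold lower (log2 difference -1.62, standard error 0.33, limma adjusted p = 0.00118). These were the only 2 of 7 tested markers called between tissues, at an adjusted p under 0.05 and a 2-fold difference, a rule that 19.6% of all 14557 genes passed (1457 higher and 1396, or 9.59%, lower in the uterus). Scaling to the same total turned that split to 1139 higher and 2159 lower, and with a pseudocount of 1 the Cdkn2a difference shrank to -0.81 and was no longer called. Cdkn2a averaged 0.496 FPKM in the uterus, under the filter of 0.5 FPKM, and was tested between tissues through its ovary values. Its call is a description. Ovary libraries differ from uterus libraries in their cell types, and how much of either gene comes from which cell was not tested.

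Neither inhibitor was called between OT and OC, and their groups overlapped in both tissues. In the ovary the log2 difference of OT from OC was 0.04 for Cdkn2b (95% CI -0.30 to 0.38) and -0.25 for Cdkn2a (95% CI -1.10 to 0.60). In the uterus Cdkn2b had a log2 difference of 0.74 (standard error 0.45, 95% CI -0.29 to 1.77, limma adjusted p = 0.627). OT1 and OT4 lay above all OC uteruses, while OT2 and OT3 lay between OC2 and OC3, and the exact two-sided permutation p was 0.229. That result rested on the OC3 uterus: without OC3 the Cdkn2b difference was 1.16 (limma unadjusted p = 0.0309) in the uterus and 1.20 (0.0282) in the interaction term, and both then passed the call. Without any filter on low values, Cdkn2a differed in the uterus by 0.12 (95% CI -1.06 to 1.31). An interval this wide leaves a 2-fold change in either direction undetectable in these samples.

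**Figure D3:**
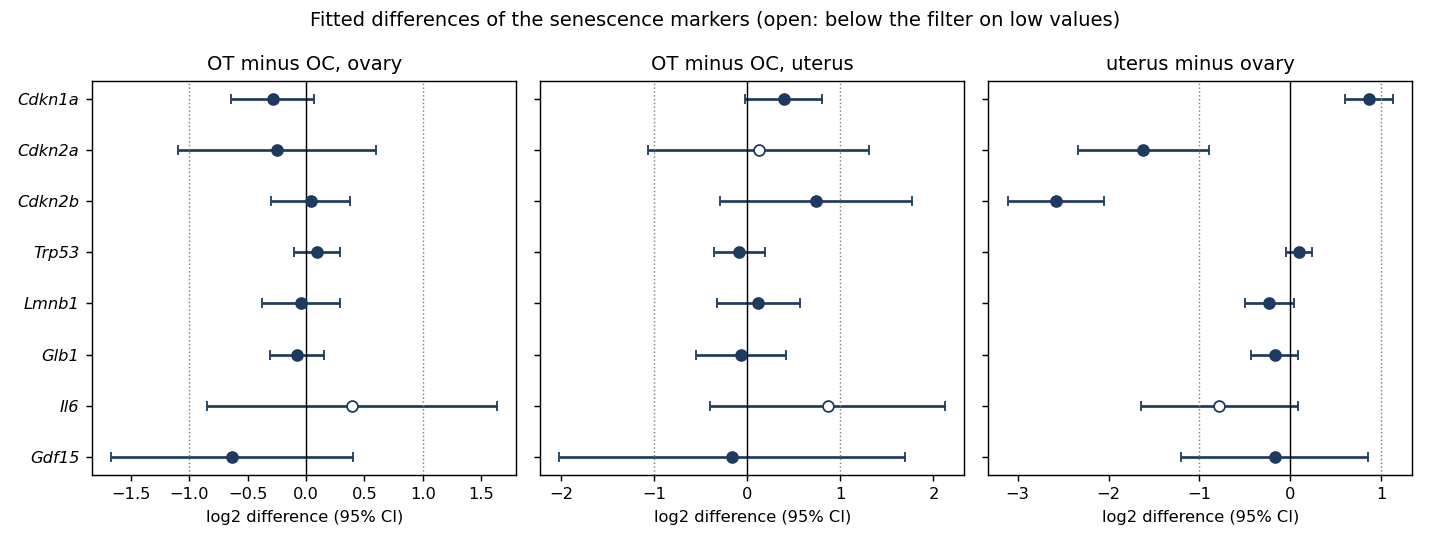
Fitted log2 differences (x axis) of the 8 markers with 95% confidence intervals from limma, for OT minus OC in the ovary, OT minus OC in the uterus and uterus minus ovary, each panel with its own scale. Dotted lines mark 2-fold and open circles mark genes below the filter. No marker is past 2-fold in OT against OC, and Cdkn2a and Cdkn2b are past it between tissues.

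Genes of the RB pathway and regulators of the locus were followed as lists. Of 18 genes of the G1 cell cycle and RB pathway, all tested, none was called in the ovary and 1 in the uterus. This was Cdkn2c, the gene of the inhibitor p18Ink4c, at 18.9 ± 1.97 FPKM in OC and 45.5 ± 21.3 FPKM in OT uteruses (log2 difference 1.17, standard error 0.30, limma adjusted p = 0.485). Without OT1 it was 0.88 and no longer called. Cdkn2c was at 20.5 ± 1.80 FPKM in OC and 26.8 ± 5.68 FPKM in OT ovaries (0.36, limma unadjusted p = 0.0458). In the uterus, with unadjusted p of at most 0.05 by limma but under 2-fold, Ccnd2 (cyclin D2) had a log2 difference of 0.86 and Rbl2, a relative of RB, one of -0.40. The list median was 0.02 for ovaries and 0.22 for uteruses. Scaling to the same total lowers the median of all uterus genes by 0.13 on the log2 scale.

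Of 17 regulators of the Cdkn2a-Cdkn2b locus, Dmtf1, a transcription factor that activates Arf, had a log2 difference of -0.22 in the ovary (limma unadjusted p = 0.0228), and none was called there. In the uterus Tbx2, a repressor of the locus, was called, at 2.75 ± 0.248 FPKM in OC and 6.21 ± 2.93 FPKM in OT (log2 difference 1.02, standard error 0.38, limma adjusted p = 0.559). Its call was lost without OC1 (0.97), OC3 (0.99), OT1 (0.96), OT3 (0.75) or OT4 (1.02). With all mice kept it was also lost with a pseudocount of 1 (0.85) and under scaling to the same total (0.89). It was lost with the replicate block (1.02) too, which leaves out OT4. The related repressor Tbx3 had a log2 difference of -0.50 in the uterus (limma unadjusted p = 0.0146). Both are repressors, and the values went opposite ways. Between tissues 1 regulator was called, again Tbx2, which was lower in the uterus by a log2 difference of -2.16 (limma adjusted p = 1.97e-06), while none of the other 16 was.

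Lmnb1 (chr18:56707813-56753424), whose loss from the nuclear lamina marks senescent cells, had overlapping groups in both tissues. It was at 13.7, 12.2 and 14.1 FPKM in OC ovaries and at 14.4, 13.3, 14.8 and 9.77 FPKM in OT ovaries. Uterus values were 9.90, 11.7 and 10.5 FPKM in OC and 9.83, 10.2, 16.0 and 11.3 FPKM in OT. The OT4 ovary was the lowest of the ovaries and the OT3 uterus the highest of the uteruses. For OT less OC, the log2 difference was -0.04 (95% CI -0.38 to 0.29) in ovaries and 0.12 (95% CI -0.32 to 0.56) in uteruses, where it turned to -0.02 under scaling to the same total. Uterus and ovary differed by -0.23 (standard error 0.12, limma adjusted p = 0.133).

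Of 15 genes of the nuclear lamina and of chromatin, none was called in the ovary, where Lbr, the lamin B receptor, had a log2 difference of 0.18 (limma unadjusted p = 0.0496). In the uterus 1 was called, Hmga1, a chromatin protein found both in dividing cells and in senescence-associated heterochromatin. Hmga1 was at 2.75 ± 0.281 FPKM in OC and 6.30 ± 1.87 FPKM in OT (log2 difference 1.11, standard error 0.28, limma adjusted p = 0.485), and it stayed called without any one of the 7 mice. It fell just short of 2-fold with a pseudocount of 1 (0.92) and under scaling to the same total (0.99). Lemd3, an inner nuclear membrane protein, had a log2 difference of -0.31 (limma unadjusted p = 0.0485). The list median was -0.05 for ovaries and 0.09 for uteruses.

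Glb1 (chr9:114401076-114474898) was the most abundant marker in the ovary. It was at 27.1, 28.3 and 27.3 FPKM in OC ovaries and at 21.6, 28.1, 26.9 and 28.4 FPKM in OT ovaries. In uteruses it was at 19.1, 27.7 and 27.2 FPKM in OC and at 18.3, 27.7, 20.7 and 27.7 FPKM in OT. Low values occurred in both uterus groups, in OC1, OT1 and OT3, and the groups overlapped. For OT less OC, the log2 difference was -0.08 (95% CI -0.31 to 0.15) in ovaries and -0.07 (95% CI -0.55 to 0.42) in uteruses. Uterus values were below those of the ovary in 7 of 7 mice (exact sign-flip permutation p = 0.0156) by a log2 difference of -0.17, with a limma adjusted p of 0.242. In OC2, OC3, OT2 and OT4 the log2 difference was -0.03, -0.003, -0.02 and -0.04. Over all tested genes, 40.7% had the same direction in all 7 mice. Glb1 RNA is not the enzyme activity that the stain reads.

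Of 18 lysosomal hydrolases and membrane proteins none was called in either tissue. In the ovary, Gla (alpha-galactosidase) had a log2 difference of 0.31 and Man2b1 (lysosomal alpha-mannosidase) one of 0.22, with unadjusted p of 0.0283 and 0.0225 by limma. In the uterus, Tfeb, a transcription factor that drives lysosomal genes, had a log2 difference of 0.49 (limma unadjusted p = 0.0269). The list median was 0.04 for ovaries and 0.16 for uteruses.

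The secreted markers were near the lower limit of these data. Il6 (chr5:30013114-30019981) was at 0.229, 0.255 and 0.0568 FPKM in OC ovaries and at 0.0596, 0.610, 0.267 and 0.247 FPKM in OT ovaries. In the uterus it was listed at 0 in OC2, OC3 and OT3, and it was at 0.122 FPKM in OC1 and at 0.282, 0.241 and 0.144 FPKM in OT1, OT2 and OT4. The highest value, in the OT2 ovary, was that of a single library, and the groups overlapped in both tissues. With no filter the log2 difference of OT from OC was 0.40 (95% CI -0.84 to 1.63) in the ovary. It was 0.86 (95% CI -0.39 to 2.12, limma unadjusted p = 0.150) in the uterus, where 3 of 4 OT uteruses lay above all OC uteruses. Both intervals include 0 and a 2-fold difference, so no difference was detectable at these levels.

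Gdf15 (chr8:70629393-70632456) was at 0.929, 0.504 and 1.58 FPKM in OC ovaries and at 0.605, 0.962, 0.441 and 0.354 FPKM in OT ovaries. In uteruses it was at 0.111, 1.01 and 1.82 FPKM in OC and at 0.337, 0.788, 0.346 and 1.16 FPKM in OT. Its mean was lower in OT in both tissues, but the groups overlapped and the OC uteruses spanned more than the OT uteruses. The log2 difference was -0.63 (95% CI -1.66 to 0.40, limma adjusted p = 0.997) in ovaries and -0.16 (95% CI -2.02 to 1.69) in uteruses. The uterus value depended on single mice and ran from -1.09 to 0.50 as each was left out. It was -1.09 without OC1, the OC uterus with the lowest level.

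Other secretory factors were followed as a list. Of 32 listed genes, 24 ovary and 23 uterus genes passed the filter. In the ovary 3 were called, all higher in OT. For Il1b and Tnf the OC mean lay below 0.5 FPKM, so both were tested only through their OT values, and their calls are given as a description. The inflammatory cytokine Il1b was at 0.318 ± 0.154 FPKM in OC and 1.24 ± 1.03 FPKM in OT (log2 difference 1.49, standard error 0.54, limma adjusted p = 0.997). Tnf, another such cytokine, was at 0.279 ± 0.252 FPKM in OC and 0.796 ± 0.175 FPKM in OT (1.42, standard error 0.49). The third, Ccl2, a chemokine that draws monocytes, was named after its values were seen, at 1.54 ± 0.491 FPKM in OC and 3.75 ± 0.563 FPKM in OT (1.27, standard error 0.25). Each call rested on single mice: Il1b was not called without OC2 (1.47) or OC3 (1.24), Tnf without OC1 (1.04) or OC3 (1.30), and Ccl2 without OC3 (0.9978). Il1b was also not called with the replicate block (1.04), and with a pseudocount of 1 none of the 3 was called (0.68 for Il1b, 0.50 for Tnf and 0.91 for Ccl2). Beside them, the 9 macrophage markers summed to 309 to 413 FPKM in OC and 403 to 591 FPKM in OT ovaries, with 5 of 9 higher at an unadjusted p of at most 0.05, none called and none listed at 0. Adipocyte markers were also higher in OT ovaries, as given above. The part of either set in the change was not tested.

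In the uterus, the matrix protease Mmp9 had a log2 difference of 0.998 (limma unadjusted p = 0.0160). Hgf, a growth factor made by stromal cells, went the other way, from 10.8 ± 0.621 FPKM in OC to 5.80 ± 0.313 FPKM in OT (-0.88, standard error 0.13, limma unadjusted p = 0.000153, adjusted p = 0.357), with all 4 OT uteruses below all 3 OC uteruses. Over all tested genes 5.48% had every OT uterus lower. Under scaling to the same total Hgf passed the 2-fold limit (-1.03). The list median was 0.14 for ovaries and 0.25 for uteruses, and 16 genes lay above 0 in each.

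Interleukin-6 signalling and the integrated stress response, which act around Il6 and Gdf15, were also listed. Of 18 genes of interleukin-6 signalling, 16 were tested in each tissue. In the ovary 1 was called, Socs3, the feedback inhibitor that STAT3 induces, at 9.41 ± 1.59 FPKM in OC and 19.4 ± 4.09 FPKM in OT (log2 difference 1.02, standard error 0.19, limma unadjusted p = 0.000542, adjusted p = 0.997). It stayed near 2-fold but below it without OC1 (0.89), OT1 (0.93), OT2 (0.99) or OT4 (0.97), with a pseudocount of 1 (0.95) and with the replicate block (0.97). Socs1, a related inhibitor, had a log2 difference of 0.70 (limma unadjusted p = 0.00816). None of the 16 was called in the uterus. Socs3 answers to many cytokines, and the Il6 level itself was not distinguishable between the ovary groups.

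Of 16 genes of the integrated stress response, the pathway that induces Gdf15 through ATF4 and CHOP, 14 were tested. None had an unadjusted p of at most 0.05 in the ovary. In the uterus 2 were called, both enzymes of serine synthesis. Phgdh was at 6.39 ± 1.42 FPKM in OC and 16.9 ± 10.8 FPKM in OT (log2 difference 1.21, standard error 0.43, limma adjusted p = 0.550), and Psat1 at 7.35 ± 1.20 and 17.1 ± 7.64 FPKM (1.123, standard error 0.31, limma adjusted p = 0.495). Phgdh was not called without OC2 (1.15), OC3 (1.10), OT1 (0.84) or OT3 (1.16), nor Psat1 without OT1 (0.85) or under scaling to the same total (0.99). The OT1 uterus also held the highest level of adipocyte markers, and their part was not tested.

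**Figure D4:**
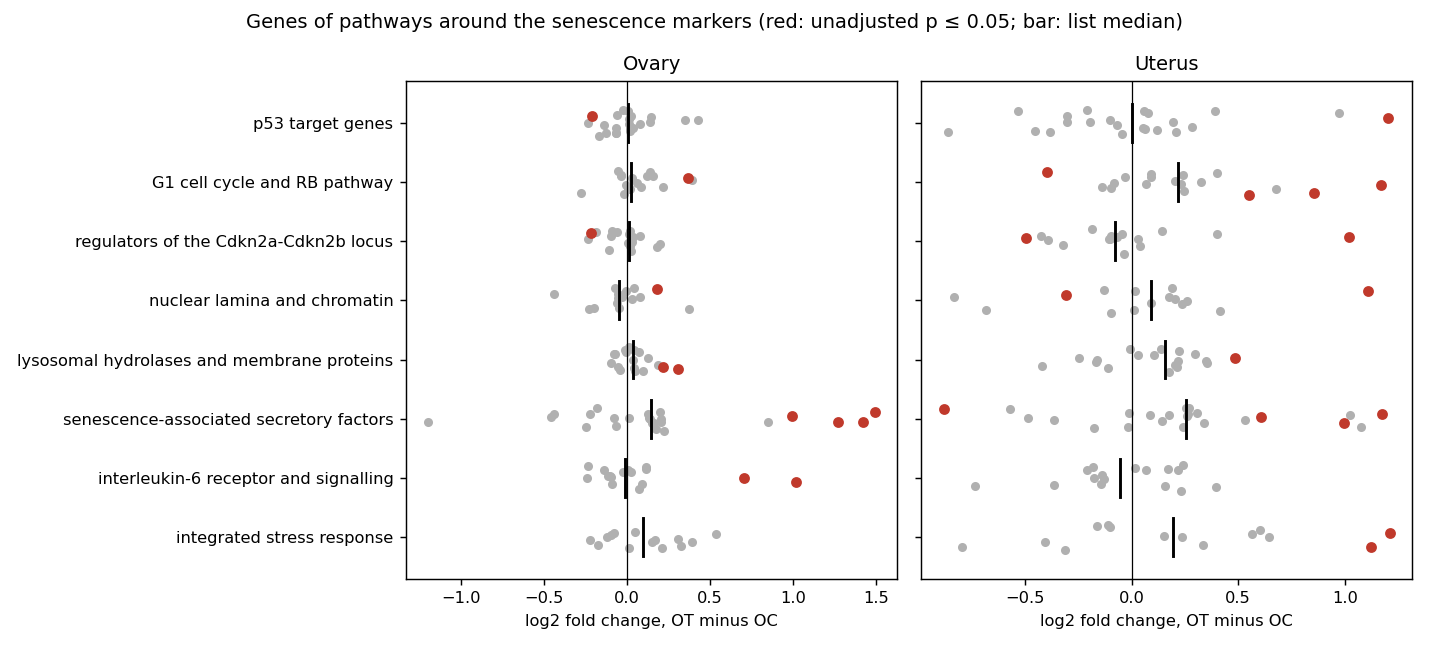
Log2 fold change of OT against OC (x axis) for each tested gene of 8 pathway lists (rows), in the ovary and in the uterus. Red points have an unadjusted limma p of at most 0.05 and black bars are list medians, with jitter on the y axis only. Points above 1 in the ovary are the secretory genes Il1b, Tnf and Ccl2 with Socs3, the point below -1 is the secretory gene Spp1 (-1.20, not called), and most medians lie near 0.

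In the order of levels, Glb1 (mean 26.8 FPKM) and Trp53 (24.6 FPKM) led in the ovary, ahead of Cdkn2b (14.5), Lmnb1 (13.2), Cdkn1a (8.81), Cdkn2a (1.63), Gdf15 (0.768) and Il6 (0.246 FPKM). In the uterus Trp53 (26.0 FPKM) and Glb1 (24.1 FPKM) again led, followed by Cdkn1a (16.8), Lmnb1 (11.4), Cdkn2b (2.70), Gdf15 (0.795), Cdkn2a (0.496) and Il6 (0.113 FPKM). Cdkn1a and Cdkn2b thus changed places between the tissues. Of neighbours in these orders, only Trp53 and Cdkn2b, and Cdkn1a and Cdkn2a, in the ovary and Lmnb1 and Cdkn2b in the uterus had ranges over 7 libraries that did not meet.

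The genes whose pattern was most like that of each marker were sought over 14 libraries, by Pearson's r of log2(FPKM + 0.1) centred on the mean of each tissue, among 13653 genes that averaged 0.5 FPKM or more in both tissues. The libraries share mice and FPKM scaling, and the coefficients are descriptions. The nearest genes were Ephx3 (0.89), Plp2 (0.84) and Fam49a (0.84) for Cdkn1a. They were Slc34a2 (0.82), Rab24 (0.81) and Mtfmt (0.78) for Cdkn2a. For Cdkn2b they were Prlr, the prolactin receptor gene (0.92), Elmod3 (0.89) and Traf3 (0.86). The gene nearest to Trp53 was Ppp2r2a (0.85), followed by Gfod2 (0.85) and Smarca4 (0.83). Rnpepl1 (0.86), Rad54l (0.84) and Reep4 (0.83) were nearest to Lmnb1, and Abca3 (0.93), Napsa (0.93) and Pnpla7 (0.92) to Glb1. Dxo (0.86), Rnf181 (0.85) and Cdkn2d (0.83) were nearest to Il6, and Scn8a (0.93) and Il17ra (0.87) to Gdf15. Il6 lay below the filter in both tissues and was listed at 0 in 3 uteruses, so its pattern is that of values near the lower limit. Between markers the largest coefficients were those of Gdf15 with Glb1 (0.68), Lmnb1 with Trp53 (0.57) and Lmnb1 with Cdkn1a (0.52). Cdkn2a and Cdkn2b, neighbours on the chromosome, had 0.30, and Trp53 with its target Cdkn1a had -0.003. Over all pairs of markers the coefficients ran from -0.46, for Il6 with Lmnb1, to 0.68.

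**Figure D5:**
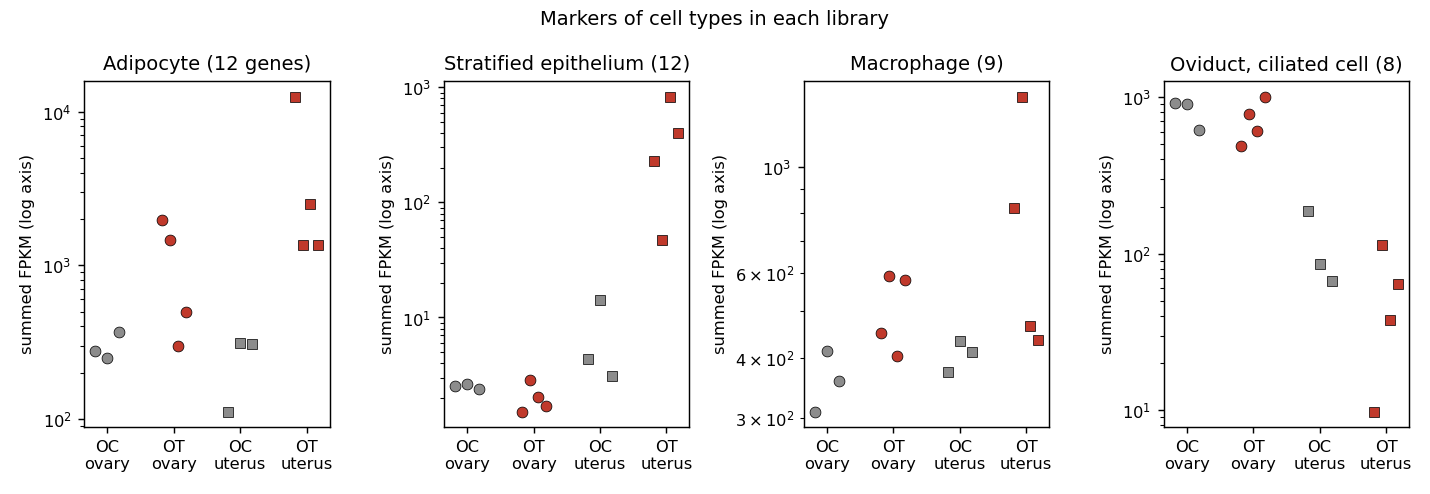
Summed FPKM (y axis, log scale) of markers of adipocytes, stratified epithelium, macrophages and oviduct or ciliated cells in each library (circles, ovary. Squares, uterus. Grey, 3 OC mice. Red, 4 OT mice). Adipocyte markers ran from 112 to 314 FPKM in OC and from 1361 to 12476.6 FPKM in OT uteruses, and stratified epithelium markers from 3.09 to 14.3 and from 47.0 to 826 FPKM.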

How the data were processed

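RNA-seq of ovary and uterus from 3 OC and 4 OT mice gave 14 libraries in 4 groups, assigned by their labels. Per the labels and the methods of the study, rRNA was removed, the library kit kept strand, and the authors trimmed reads with Skewer 0.2.2, mapped them to mm10 with STAR 2.5 and computed the deposited FPKM with Cufflinks 2.2.1. FPKM holds no read totals, so depth and counting error are unknown, and reads of overlapping genes or near copies may be shared. Cuffdiff, which the study used, needs the reads and was not run. The authors' FPKM were not scaled further here. All 21853 identifiers matched GENCODE M21.

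limma 3.58.1 in R 4.3.3 (lmFit, eBayes with a trend) was fitted to log2(FPKM + 0.1) over all genes that averaged 0.5 FPKM or more, per tissue for OT against OC, and over all 14 libraries for the interaction and for uterus against ovary. The fit of 14 libraries held no term for the mouse. Its p-values treat ovary and uterus of a mouse as independent, except where a block on the mouse is named. Calls needed an unadjusted p of at most 0.05 (between tissues, a Benjamini-Hochberg adjusted p under 0.05) and a 2-fold difference. Single markers also had exact permutation tests, 32 in all. Other steps used Python 3.11.15, pandas 2.3.3, numpy 2.4.6, scipy 1.17.1 and matplotlib 3.10.9. The markers and gene lists were chosen with earlier results of these data known. From each pathway list the text names, per tissue and direction, the 2 genes with the largest difference among those with an unadjusted p of at most 0.05, and for each marker the 3 genes most like it. A few genes that these rules name are not reported here.

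Same-numbered OC and OT mice are different animals, while ovary and uterus of one name are taken, from their shared label, to come from the same mouse. Deviations from the group means correlated between the ovary and uterus of a mouse at 0.07 to 0.25 in 7 of 7 mice. Between ovary and uterus of different mice of a group they correlated at -0.24 to 0.25, a range that covers the same-mouse values. The alternatives were pseudocounts of 1 and 0.01, no filter, a filter of 1 FPKM, upper quartile scaling, scaling to the same total, robust eBayes, a replicate block, a joint fit of both tissues, and leaving out each mouse.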

Additional observations from a re-analysis of the deposited data

Results flagged for a closer look

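Cdkn1a is given here because the test of the difference between tissues in the response to treatment had an unadjusted p under 0.05, which 5.12% of all tested genes had. The interaction term was 0.6762 on the log2 scale (limma unadjusted p = 0.0156, adjusted p = 0.844), with a log2 difference of OT from OC of 0.39 in the uterus and -0.29 in the ovary. It did not reach 2-fold, and it did not pass correction over 14557 genes. The log2 difference of uterus from ovary within a mouse was larger in all 4 OT mice than in all 3 OC mice. Groups of mice that did not overlap, in either direction, were found for 7.6% of genes. Over the 16 settings tried the interaction term lay between 0.53 and 0.77, and its unadjusted p by limma between 0.00496 and 0.0808. That p was above 0.05 without OC1 (0.0565) and under scaling to the same total (0.0808). In 16 groups of 4 libraries, those of the 8 markers in OT ovaries and uteruses, no library lay beyond Dixon's critical value of 0.829. Chance alone would place about 1 in 20 groups beyond it.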

How the results depend on the processing

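No marker was called in OT against OC under any of the alternatives that kept all mice. Without OC3, Cdkn2b was called in the uterus and in the interaction term, so the markers called with each mouse left out ran from 0 to 1 there. Between tissues 2 markers were called, and 1 with a pseudocount of 1. In the ovary 65 genes were called, against 18 with a pseudocount of 1, 159 with no filter, 42 with a filter of 1 FPKM, 103 with scaling to the same total and 51 to 137 with each mouse left out (137 without OT3). In the uterus 410 were called, against 259 with a pseudocount of 1 and 295 to 605 with each mouse left out. In the interaction term 267 were called, against 134 with a pseudocount of 1, 438 with no filter and 214 to 378 with each mouse left out. Scaling to the same total changed the split of higher and lower calls from 316 and 94 to 319 and 160 in the uterus, and from 186 and 81 to 193 and 139 in the interaction term. The cause of these changes was not tested.

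A replicate block on the numbers of OC and OT mice, which are different animals, gave 105 calls in the ovary and 666 in the uterus. Deviations of same-numbered OC and OT mice correlated at 0.04 to 0.33 in the ovary and -0.03 to 0.08 in the uterus. Those of differently numbered mice correlated at -0.38 to 0.25 in the ovary and -0.27 to 0.19 in the uterus. The block on the mouse gave 352 calls in the interaction term and 2875 between tissues. No block changed the call of a marker.

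Directions turned only for differences that were not called. Lmnb1 was at 0.0889 in the ovary with the replicate block and at -0.0208 in the uterus with scaling to the same total. Glb1 in the interaction term was at -0.0195 with upper quartile scaling and -0.1437 with scaling to the same total, and Trp53 between tissues was at -0.1413 with the latter. With each mouse left out, the ovary values ran from -0.48 to 0.12 for Cdkn2a, -0.0435 to 0.19 for Cdkn2b, -0.11 to 0.09 for Lmnb1 and -0.12 to 0.0127 for Glb1. The uterus values ran from -0.0341 to 0.20 for Lmnb1, -0.24 to 0.0482 for Glb1 and -1.09 to 0.50 for Gdf15. The interaction values ran from -0.30 to 1.06 for Cdkn2a, -0.15 to 0.10 for Glb1 and -0.47 to 1.11 for Gdf15, and the tissue values from -0.49 to 0.30 for Gdf15.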

Other observations

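Between tissues, more genes of the secretory list passed than of any other pathway list. Of 26 tested, 8 were higher and 6 lower in the uterus, against 19.6% called over all genes. Il1a (log2 difference 2.32), Mmp3 (2.28) and Ccl8 (2.07) were among those higher in the uterus, and Ereg (-4.04), Timp1 (-3.47) and Mmp12 (-3.22) among those lower. Il1a lay below the filter in the ovary, as did Cxcl5 and Lif, which were also higher in the uterus. Ereg and Mmp12 lay below it in the uterus. Each of these was tested between tissues through its values in the other tissue. Their calls, which the counts of this list include, are a description. Ereg encodes epiregulin, a growth factor of the ovulating follicle. Of 22 p53 targets tested, 3 were higher in the uterus, Pmaip1 (1.55), Perp (1.49) and Zmat3 (1.04). Another 2 were lower, Ddit4 (-1.16) and Plk2 (-1.06). The share of p53 targets called was near the 19.6% over all genes. These genes were named after their values were seen.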
